A study of Mus musculus with 12 samples.

Results

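The genes described here are G protein-coupled receptor genes recognised by name, mostly outside the classical transmitter families but with the adrenaline and dopamine receptors included. They are the rows of the deposited expression table whose symbol follows a set of name patterns: numbered orphan receptors (Gpr), adhesion receptors (Adgr), and the receptors for adrenaline (Adra, Adrb), prostaglandin E2 (Ptger), sphingosine 1-phosphate (S1pr), lysophosphatidic acid (Lpar), nucleotides (P2ry), proteases (F2r), endothelin (Ednr), adenosine (Ador), bradykinin (Bdkrb), neuropeptide Y (Npy), dopamine (Drd) and melanocortin (Mc). The patterns found 161 of the 55487 genes of the table, and 83 of them were among the 16016 genes that reached 1 TPM, the length-corrected unit of the table, in at least 3 libraries and were tested. A further 78 were too low to test, 7 of these were listed at 0 in every library, and the largest value of any of the 78 was 1.58 TPM. The name does not make every member a surface receptor, since Gpr89 encodes a Golgi pH regulator and the Gpr107, Gpr108 and Gpr137 products are mostly found on internal membranes.

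RNA-seq was made from 12 libraries, 3 in each of 4 groups, of cells grown from the cochlear modiolus of postnatal day 4 mice of a mixed C57Bl6 and FVB/N background. Spheres, the starting population, were grown from the pooled tissue of several mice in DMEM/F12 with EGF at 20 ng/ml, IGF at 50 ng/ml, bFGF at 10 ng/ml and heparan sulfate. SCDM is a DMEM/F12 medium with BDNF and NT3, each at 50 ng/ml, and SCDM/FGF is SCDM plus bFGF at 100 ng/ml. FIBCL is a Neurobasal medium with 4 small molecules, LIF at 1000 U/ml and bFGF, for which the labels list both 50 and 100 ng/ml. Its small molecules are Forskolin at 20 μM, the neurogenic compound ISX9 also at 20 μM, the bromodomain inhibitor I-BET at 1 μM and the GSK3 inhibitor CHIR99021 at 10 μM. Every medium held B27 and N2, and cells in the 3 media other than that of the spheres were collected after 14 days. The FIBCL recipe names neither BDNF nor NT3. Base medium, added factors and compounds thus changed at the same time between SCDM and FIBCL, and what each contributed cannot be told apart. Columns of the FIBCL libraries are headed FIBC and were matched to FIBCL as the sole such group in the labels.

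G protein-coupled receptors thread back and forth through the membrane and pass a signal to a trimeric G protein when a ligand binds. The alpha subunit then sets the route: Gs raises cyclic AMP through adenylyl cyclase, Gi lowers it, Gq opens calcium stores, and G12 and G13 act on the cytoskeleton. RGS proteins end the signal and receptor kinases with arrestins silence the receptor. In the nervous system the lipid and endothelin receptors are prominent in Schwann cells and connective tissue, the P2Y family in glia and microglia, and the adhesion family in cell contacts, myelination and synapses. Forskolin, part of FIBCL, raises cyclic AMP by acting on adenylyl cyclase itself, without a receptor.

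Levels are given as scaled TPM, the deposited TPM after a factor per library that aligned the genes expressed in all libraries. Fold changes are on the log2(scaled TPM + 1) scale, which understates changes of low genes, abbreviated log2 FC with its standard error (SE). A gene was called when its adjusted p in limma was under 0.05 and its log2 fold change was at least 1 in either direction. Rose and fell are used of called genes. A call in bulk RNA cannot tell fewer cells of a type from less RNA per cell. Between 21625 and 22281 genes were above 0 in a library. Before rescaling, the median of all tested genes between FIBCL and SCDM lay at −0.40 on the log2 scale, and after it at −0.07. Of 9 glial markers 8 were lower in FIBCL than in SCDM and of 7 tested neuronal markers 6 were higher. Snap25 and Elavl3, among these 6, reached 1 TPM in the FIBCL libraries alone, so their difference was built into their selection. The 9 glial markers summed to 486 to 506 scaled TPM in spheres and 16.7 to 22.8 in FIBCL. The 9 mesenchyme and fibroblast markers summed to 2658 to 2702 in spheres, 5891 to 6131 in SCDM, 5369 to 5728 in SCDM/FGF and 161 to 174 in FIBCL, and the 14 macrophage markers to 162 to 214, 1912 to 2139, 2297 to 2478 and 181 to 214. Cd68 alone gave 152 to 176 of the FIBCL macrophage sum, and without it the sums were 129 to 171 in spheres and 29.3 to 37.6 in FIBCL.

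The receptor genes were called in both directions between FIBCL and each other group. Between FIBCL and SCDM, 20 of the 83 tested receptor genes were higher in FIBCL (24.1%, against 13.2% of all tested genes) and 28 were lower (33.7%, against 16.1%). Between FIBCL and SCDM/FGF, 17 were higher and 31 lower, where 12% and 15.8% of all genes were called. Against spheres FIBCL had 18 higher and 17 lower receptor genes, beside 12.5% and 15.5% of all genes. SCDM had 12 higher and 8 lower than spheres (6.94% and 5.46% of all genes), SCDM/FGF had 22 higher and 3 lower than spheres (7.39% and 4.73%), and SCDM/FGF had 14 higher and 2 lower than SCDM (5.73% and 4.04%). The median log2 fold change of the tested receptor genes was −0.13 between FIBCL and SCDM, beside −0.07 for all genes, and −0.54 between FIBCL and SCDM/FGF, beside −0.05. Of the 83, 7 passed the low-value limit through the libraries of 1 group alone (among them Adgrv1, Drd2, Gpr158 and Gpr50 in FIBCL, Lpar3 in spheres and Gpr35 in SCDM/FGF), so that a difference from the other groups was built into their selection. Of these 7, 4 were called between FIBCL and SCDM. Adora2a and Gpr45 reached the limit in a library outside FIBCL too, but passed only with the FIBCL libraries counted. Such cases were not counted over all 83. In all, 66 tested receptor genes were called in at least 1 of the 6 comparisons, which share groups, and 17 in none. The same count over all tested genes was not made. Without rescaling of the deposited TPM the split of calls was 17 higher and 33 lower between FIBCL and SCDM. It was then 15 and 26 between FIBCL and spheres, and 12 and 36 between FIBCL and SCDM/FGF.

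**Figure D1:**
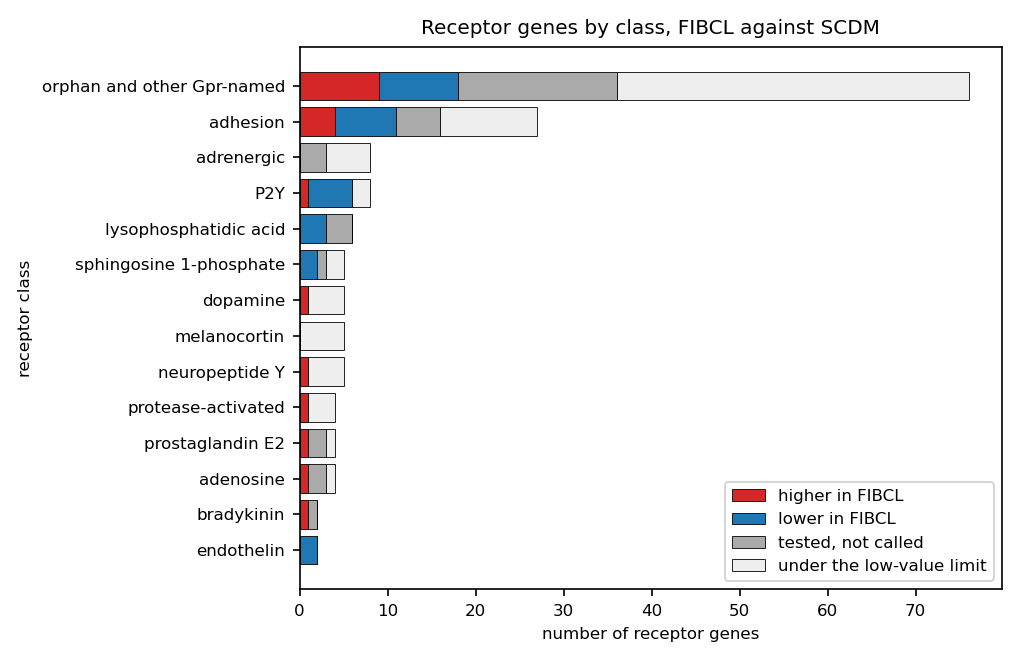
Number of receptor genes in each class (x axis) by their call between FIBCL and SCDM, with the genes under the low-value limit in pale bars. The orphan class is by far the longest bar, with 9 higher and 9 lower among 36 tested of 76, while both endothelin receptors and 5 of 6 tested P2Y receptors were lower.

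The most abundant receptor gene differed between the groups. In spheres the 3 highest were Ednra at 94.2 ± 3.47 scaled TPM, Adgrl2 at 66.7 ± 2.04 and Lpar1 at 64.7 ± 3.77 (mean ± SD, n = 3 in each group throughout). In SCDM the macrophage receptor gene Adgre1 led at 199 ± 15.2, followed by Gpr153 at 66.5 ± 6.52 and Adgrl2 at 61.6 ± 5.14. SCDM/FGF was led by Adgre1 (86.5 ± 12), Adgra2 (84.6 ± 5.69) and P2ry14 (83.7 ± 12.7), which lay within each other's spread. In FIBCL the bradykinin receptor gene Bdkrb2 stood at 148 ± 2.71, the thrombin receptor gene F2r at 67.1 ± 1.2 and Gpr108 at 51.6 ± 0.061. Over the tested receptor genes, 30 had their highest group mean in FIBCL, 20 in SCDM/FGF, 18 in SCDM and 15 in spheres. Of the 30, 4 (Adgrv1, Drd2, Gpr158 and Gpr50) passed the low-value limit in FIBCL alone, and Adora2a and Gpr45 passed it only with the FIBCL libraries counted. The same count over all tested genes was not made. Summed over all 161, the level was 848 to 864 in the FIBCL libraries, 1019 to 1069 in spheres, 1113 to 1131 in SCDM and 1267 to 1355 in SCDM/FGF, so the groups did not overlap.

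**Figure D2:**
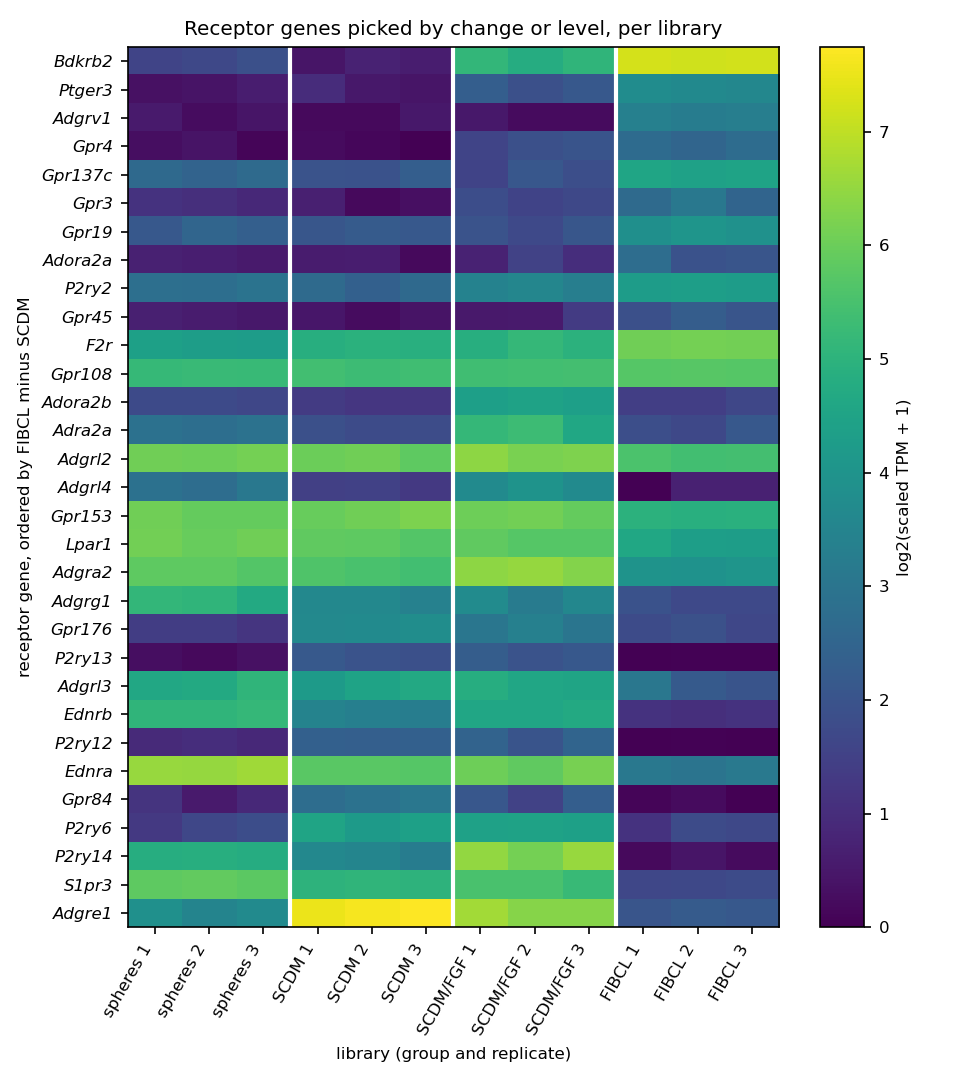
log2(scaled TPM + 1) of the receptor genes named by their change or level (rows, ordered by the difference between FIBCL and SCDM) in the 12 libraries (columns). Bdkrb2 is brightest in the 3 FIBCL libraries and Adgre1 in the 3 SCDM libraries, and replicates of a group look alike.

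Bdkrb2 showed the widest difference of any receptor gene between FIBCL and SCDM. The gene encodes the B2 receptor, which is present without injury and couples bradykinin to Gq, and lies on chromosome 12, 105563226 to 105595237, plus strand (ENSMUSG00000021070; positions throughout are from GENCODE M21, GRCm38). It was at 2, 2.22 and 2.73 scaled TPM in the spheres, 0.342, 0.681 and 0.528 in SCDM, 33.8, 26.6 and 32.6 in SCDM/FGF and 150.4, 145 and 149 in FIBCL. Every FIBCL library was above every other library, and every SCDM/FGF library was above the spheres and SCDM. It rose in FIBCL against SCDM (log2 FC 6.62, SE 0.11, adjusted p = 1.4e-12) and against SCDM/FGF (log2 FC 2.23, SE 0.11, adjusted p = 9.08e-09). It also rose in FIBCL against spheres (log2 FC 5.5, SE 0.11, adjusted p = 6.43e-12) and in SCDM/FGF against SCDM (log2 FC 4.4, SE 0.11, adjusted p = 1.9e-10). The neighbouring gene Bdkrb1, 7848 bp further along the same strand, encodes the B1 receptor, which is induced in injured tissue and prefers kinins that lack the last arginine. It was at 1.81, 1.48 and 2.69 scaled TPM in the spheres, 0.884, 0.784 and 0.755 in SCDM, 7.39, 5.86 and 8.44 in SCDM/FGF and 1.72, 1.51 and 1.16 in FIBCL, so that SCDM/FGF held the highest 3 libraries. Bdkrb1 rose in SCDM/FGF against SCDM (log2 FC 2.17, SE 0.16, adjusted p = 8.31e-07) and was lower in FIBCL than in SCDM/FGF (log2 FC −1.73, SE 0.16, adjusted p = 1.91e-06). FIBCL and SCDM differed by less than the limit (log2 FC 0.44, SE 0.16, adjusted p = 0.0308). Kng1, the gene of a kininogen from which kinins are cut and the only kininogen gene listed here, was lowest in FIBCL. Its level was 68.4, 76.2 and 73.7 scaled TPM in the spheres, 8.4, 9.39 and 10.6 in SCDM, 296, 298 and 361 in SCDM/FGF and 0.0956, 0.184 and 0.302 in FIBCL. It was lower in FIBCL than in SCDM/FGF (log2 FC −8.06, SE 0.10, adjusted p = 1.22e-13) and higher in SCDM/FGF than in SCDM (log2 FC 4.93, SE 0.10, adjusted p = 4.71e-11).

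Promoter sequence was read for the receptor genes that RefSeq covers (GRCm38.p6, 250 bases before a start, 116 of the 161 genes and 65 of the 83 tested). The cyclic AMP response element TGACGTCA and its shorter form TGACG were searched on both strands, since Forskolin was in the FIBCL medium and CREB, the factor that cyclic AMP activates, binds them. TGACG lies within TGACGTCA. The long form occurred in 1.77% of the 27025 genes with a RefSeq promoter and among the 65 tested receptor genes in S1pr2 alone. The short form occurred in 19.8% of these 27025 genes and in 15 of the 65 tested receptor genes (23.1%). It occurred in 2 of 19 that were higher in FIBCL than in SCDM (Gpr3 and Gpr19) and in 5 of 20 that were lower. Among those not called between FIBCL and SCDM it occurred in 8 of 26 (30.8%). Bdkrb2, with the widest rise, has no TGACG in this window, Gpr3 has 2 copies, and S1pr2, which fell, has the long form. The 250 bases before the start of these 3 genes are shown because their expression differed in direction. Capitals mark TGACG or its complement CGTCA, all are written 5′ to 3′ on the strand of the gene, and a match describes letters only. The windows are Bdkrb2 at chr12:105562922-105563171 (plus strand), Gpr3 at chr4:133212537-133212786 (minus strand) and S1pr2 at chr9:20976794-20977043 (minus strand).
Bdkrb2: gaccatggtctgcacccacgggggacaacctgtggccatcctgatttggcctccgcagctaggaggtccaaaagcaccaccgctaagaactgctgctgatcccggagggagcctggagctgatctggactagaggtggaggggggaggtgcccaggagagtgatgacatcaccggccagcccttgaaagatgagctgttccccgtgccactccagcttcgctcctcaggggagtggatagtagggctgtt
Gpr3: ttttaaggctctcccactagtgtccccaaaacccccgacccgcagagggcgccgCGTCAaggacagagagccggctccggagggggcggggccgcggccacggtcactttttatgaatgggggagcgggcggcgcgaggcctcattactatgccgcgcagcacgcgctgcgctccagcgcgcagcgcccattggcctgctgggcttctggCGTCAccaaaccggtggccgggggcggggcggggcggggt
S1pr2: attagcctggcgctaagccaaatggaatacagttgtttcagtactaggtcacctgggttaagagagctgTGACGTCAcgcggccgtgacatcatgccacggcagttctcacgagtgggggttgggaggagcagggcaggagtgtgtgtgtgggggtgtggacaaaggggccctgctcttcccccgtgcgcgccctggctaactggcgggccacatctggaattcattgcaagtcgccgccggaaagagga

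The prostaglandin E2 receptors split by subtype. Ptger3 encodes EP3, which couples mainly to Gi, and lies on chromosome 3, 157566892 to 157645888, plus strand (ENSMUSG00000040016). Its levels were 0.279, 0.332 and 0.529 scaled TPM in the spheres, 0.961, 0.42 and 0.359 in SCDM, 3.94, 2.69 and 3.43 in SCDM/FGF and 12.5, 11.8 and 11 in FIBCL. The FIBCL libraries lay above the SCDM/FGF libraries and these above the rest. It was called for FIBCL against SCDM (log2 FC 3.03, SE 0.16, adjusted p = 9.51e-09), FIBCL against SCDM/FGF (log2 FC 1.56, SE 0.16, adjusted p = 3.37e-06) and SCDM/FGF against SCDM (log2 FC 1.47, SE 0.16, adjusted p = 1.53e-05). Ptger4, the gene of the Gs-coupled EP4, was at 0.524, 0.847 and 0.831 scaled TPM in the spheres, 5.51, 5.07 and 5.91 in SCDM, 6.36, 4.72 and 5.7 in SCDM/FGF and 6.55, 6.69 and 6.77 in FIBCL. It rose over the spheres in every medium, with a log2 FC of 1.91 for SCDM, 1.92 for SCDM/FGF and 2.15 for FIBCL. The difference between FIBCL and SCDM did not pass the test (log2 FC 0.24, SE 0.11, adjusted p = 0.0778). Ptger1 (EP1, linked to calcium) was called in no comparison and Ptger2 was too low to test. Ptges, the gene of the inducible prostaglandin E synthase, was at 44.6, 45.6 and 43.5 scaled TPM in the spheres, 4.62, 3.4 and 4.92 in SCDM, 94.9, 92.9 and 100.5 in SCDM/FGF and 177, 186 and 193 in FIBCL. It rose in FIBCL against SCDM (log2 FC 5.14, SE 0.092, adjusted p = 1.93e-12). Ptgs2, which encodes cyclooxygenase 2, was at 11.2, 10.8 and 11.2 scaled TPM in the spheres, 8.7, 9.49 and 8.99 in SCDM, 95.3, 78 and 89.8 in SCDM/FGF and 24.9, 24.9 and 28.8 in FIBCL. SCDM/FGF held its highest libraries.

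**Figure D3:**
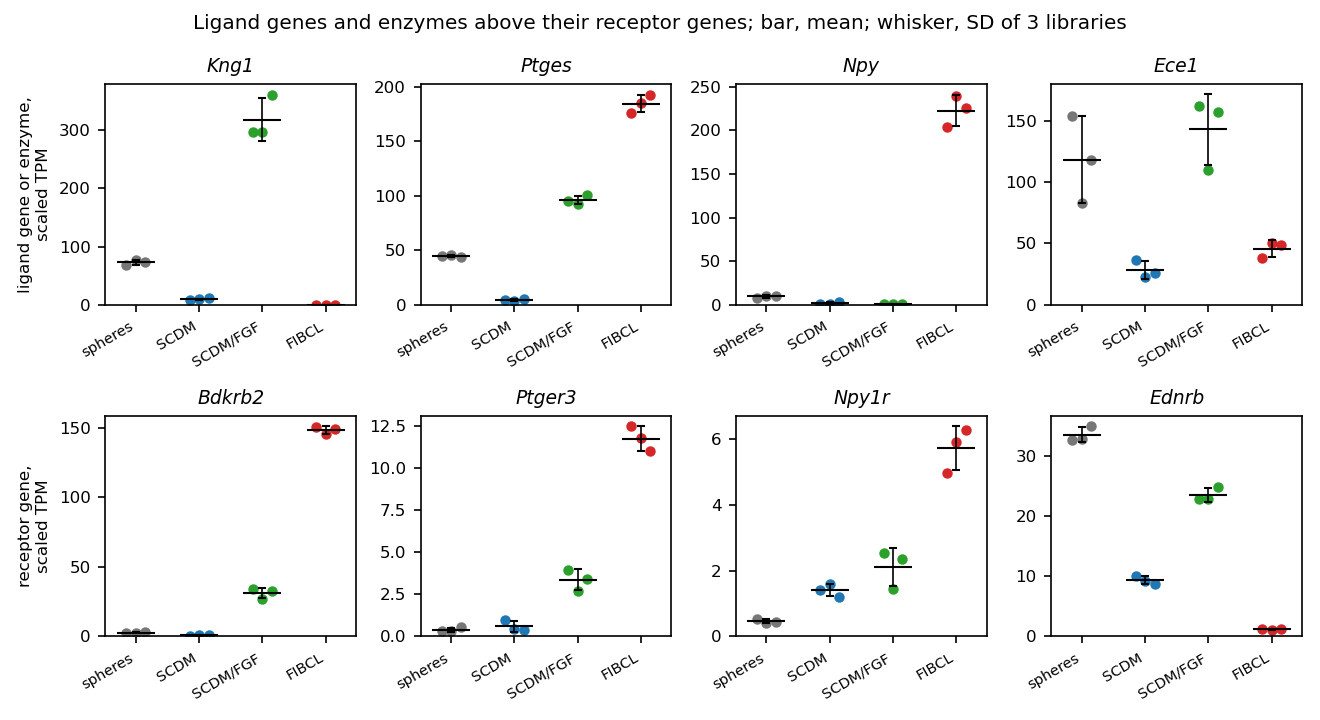
Scaled TPM of a ligand gene or enzyme (top row) and of a receptor gene of the same ligand (bottom row) in the 12 libraries, with a bar for the mean and whiskers for the SD of 3 libraries. Kng1 is near 0 where Bdkrb2 is highest, Ptges and Npy are highest in FIBCL together with Ptger3 and Npy1r, and the y axes differ between panels.

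The endothelin receptors were lowest in FIBCL. Ednra, whose product contracts smooth muscle and is found in connective tissue (ENSMUSG00000031616, chromosome 8, 77663031 to 77724464, minus strand), was at 93.6, 91.1 and 98 scaled TPM in the spheres, 53.2, 53.8 and 51.1 in SCDM, 64.7, 57.2 and 70.8 in SCDM/FGF and 7.55, 6.88 and 7.73 in FIBCL. Ednrb, needed by the neural crest and present in Schwann cells (ENSMUSG00000022122, chromosome 14, 103814625 to 103844402, minus strand), was at 32.8, 32.9 and 35 scaled TPM in the spheres, 10.1, 9.17 and 8.77 in SCDM, 22.9, 22.9 and 24.8 in SCDM/FGF and 1.22, 1.04 and 1.21 in FIBCL. Neither gene had a FIBCL library that reached a library of another group. Ednra fell in FIBCL against SCDM (log2 FC −2.68, SE 0.072, adjusted p = 3.96e-11) and Ednrb too (log2 FC −2.26, SE 0.071, adjusted p = 1.36e-10). Ednrb was also lower in SCDM than in spheres (log2 FC −1.74, SE 0.071, adjusted p = 5.43e-09) and higher in SCDM/FGF than in SCDM (log2 FC 1.25, SE 0.071, adjusted p = 7.76e-08). For Ednra the differences among spheres, SCDM and SCDM/FGF stayed under the limit. The ligand gene Edn3 was at 0.0677, 0.0873 and 0.0671 scaled TPM in the spheres, 10.3, 8.27 and 7.5 in SCDM, 0.0587, 0.121 and 0.0203 in SCDM/FGF and 0.0239, 0 and 0 in FIBCL. Edn3 reached 1 TPM in the SCDM libraries alone, so its difference from FIBCL was built into its selection and is given as levels. Ece1, the converting enzyme, was at 154, 83.1 and 118 scaled TPM in the spheres, 36.2, 22.7 and 26 in SCDM, 163, 109.7 and 157 in SCDM/FGF and 37.8, 50.5 and 49.1 in FIBCL. Markers of mesenchyme and glia moved in the same direction as both receptors: 8 of 9 mesenchyme and fibroblast markers and 8 of 9 glial markers were lower in FIBCL than in SCDM. Their part in the fall was not tested.

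Receptors for lysophospholipids followed, with S1pr3 furthest down. Sphingosine 1-phosphate acts through S1pr1, a Gi receptor, and through S1pr2 and S1pr3, which also reach G12, G13 and Gq. S1pr3 (ENSMUSG00000067586, chromosome 13, 51408639 to 51422797, plus strand) was at 56.1, 57.9 and 54.8 scaled TPM in the spheres, 31.1, 32.8 and 30.9 in SCDM, 44.5, 44.9 and 36.4 in SCDM/FGF and 2.16, 2.19 and 2.39 in FIBCL. It fell in FIBCL against SCDM (log2 FC −3.33, SE 0.076, adjusted p = 1.24e-11). S1pr2 was at 23.7, 23.4 and 23.8 scaled TPM in the spheres, 18.1, 17.9 and 16.9 in SCDM, 21.1, 20.9 and 20.02 in SCDM/FGF and 4.95, 4.51 and 4.72 in FIBCL. It fell as well (log2 FC −1.7, SE 0.054, adjusted p = 1.53e-10). S1pr1 was at 13.8, 11.7 and 11.7 scaled TPM in the spheres, 18.9, 15.5 and 16.1 in SCDM, 11.6, 11.9 and 10.4 in SCDM/FGF and 18.2, 20.7 and 16.6 in FIBCL. Its FIBCL and SCDM libraries overlapped, and it was called nowhere. S1pr4 and S1pr5 were too low to test.

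All 6 lysophosphatidic acid receptor genes were tested and 3 were lower in FIBCL than in SCDM. Lpar1, the subtype of Schwann cells and fibroblasts, was at 67, 60.3 and 66.7 scaled TPM in the spheres, 57, 55.2 and 50.5 in SCDM, 56.5, 51.3 and 51.6 in SCDM/FGF and 23.3, 19.1 and 18.8 in FIBCL. It fell in FIBCL against SCDM (log2 FC −1.37, SE 0.083, adjusted p = 3.68e-08) and SCDM/FGF (log2 FC −1.34, SE 0.083, adjusted p = 4.76e-08), and against spheres (log2 FC −1.62, SE 0.083, adjusted p = 9.48e-09). Lpar4 fell (log2 fold change −1.18) and so did Lpar5 (−1.72), which is on the list of receptor genes associated with myeloid cells. Lpar2 had a difference of 0.82 and Lpar6 of −0.87, both under the limit. Lpar3 was above 1 TPM in the spheres alone, at 1.36, 1.26 and 1.33, and was 0.289 scaled TPM or less in every other library. Enpp2, which encodes autotaxin, the enzyme that makes the ligand, was at 72.7, 81 and 76.9 scaled TPM in the spheres, 6.44, 8.49 and 7.11 in SCDM, 45.3, 42.6 and 44.3 in SCDM/FGF and 8.9, 8.89 and 9.71 in FIBCL. It was higher in SCDM/FGF than in SCDM (log2 FC 2.44, SE 0.083, adjusted p = 1.41e-09).

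**Figure D4:**
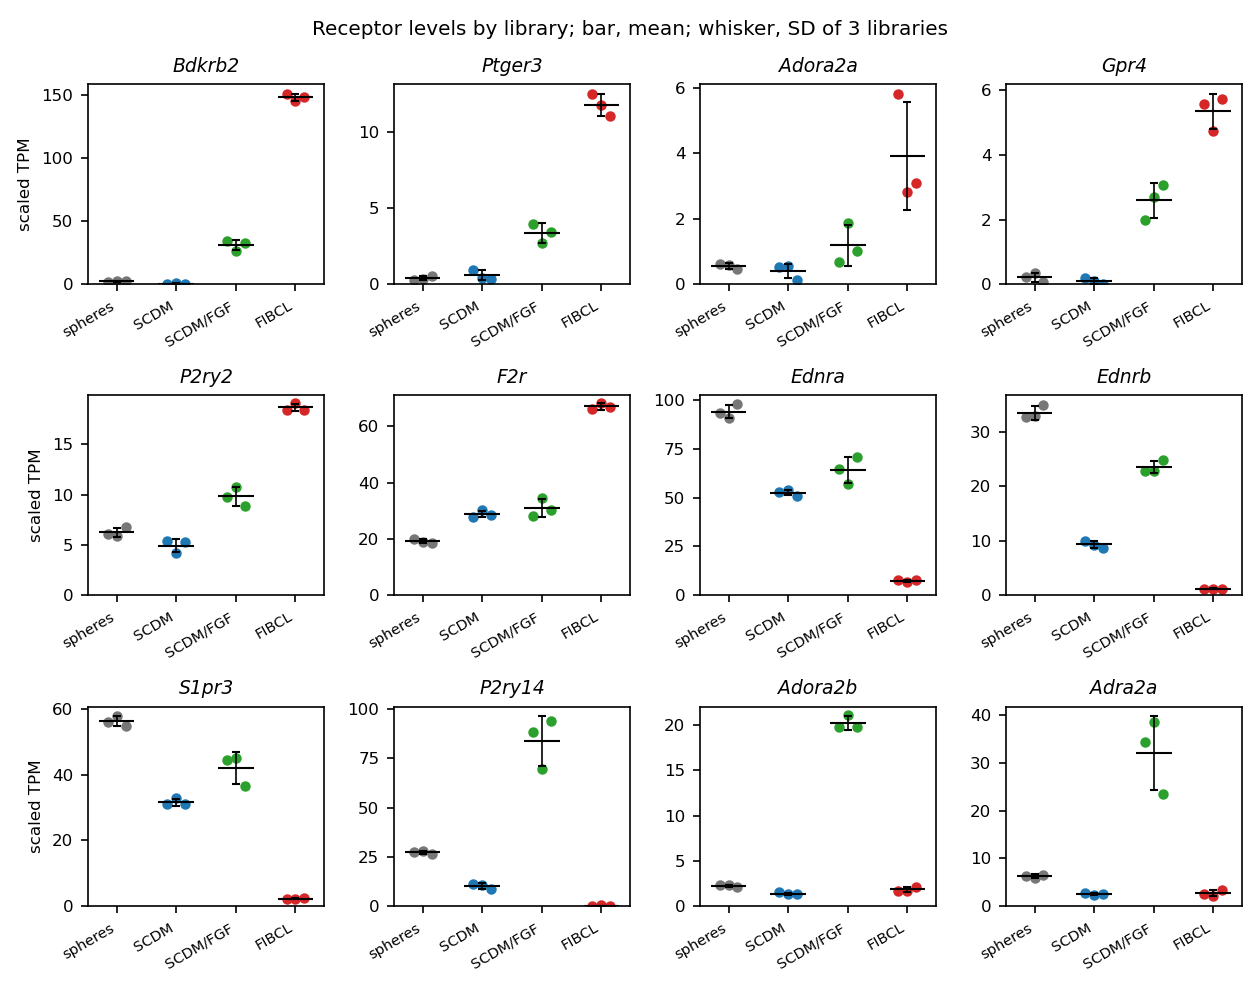
Scaled TPM of 12 receptor genes in the 12 libraries (points), with a bar for the mean and whiskers for the SD of 3 libraries, on a y axis of its own per gene. Ednra, Ednrb and S1pr3 are lowest in FIBCL, Bdkrb2, Ptger3 and F2r are highest there, and Adora2b, Adra2a and P2ry14 peak in SCDM/FGF.

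Among the nucleotide receptors, 5 of 6 tested P2Y genes fell in FIBCL against SCDM and P2ry2 rose. P2ry14, the receptor gene for UDP-glucose (ENSMUSG00000036381, chromosome 3, 59113855 to 59153618, minus strand), was at 27.6, 27.9 and 26.6 scaled TPM in the spheres, 11.3, 10.6 and 8.46 in SCDM, 88, 69.5 and 93.6 in SCDM/FGF and 0.155, 0.357 and 0.171 in FIBCL. Its SCDM libraries were below the spheres (log2 FC −1.36, SE 0.12, adjusted p = 3.8e-06). The SCDM/FGF libraries were above them, and added bFGF went with a rise over SCDM (log2 FC 2.93, SE 0.12, adjusted p = 7.57e-09). It fell in FIBCL against SCDM (log2 FC −3.17, SE 0.12, adjusted p = 8.78e-10) and against SCDM/FGF (log2 FC −6.1, SE 0.12, adjusted p = 5.13e-12). P2ry12 and P2ry13, the ADP receptor genes of microglia and platelets, lie on the same stretch of chromosome 3 and strand, with a gap of 5390 bp between them. P2ry12 was at 0.888, 1.01 and 0.864 scaled TPM in the spheres, 4.19, 4.09 and 4.17 in SCDM, 4.5, 3.03 and 4.66 in SCDM/FGF and 0, 0.0369 and 0 in FIBCL. P2ry13 was at 0.22, 0.14 and 0.277 scaled TPM in the spheres, 3.51, 2.98 and 2.73 in SCDM, 3.84, 2.93 and 3.41 in SCDM/FGF and 0, 0.0369 and 0.0394 in FIBCL. Both fell in FIBCL against SCDM (log2 FC −2.35, SE 0.13, adjusted p = 1.24e-08 for P2ry12 and log2 FC −1.99, SE 0.11, adjusted p = 1.92e-08 for P2ry13). Both rose in SCDM against spheres (1.42 and 1.75 on the log2 scale). All 3 genes lie on the opposite strand within Med12l, which reached at most 3.32 scaled TPM and differed by 0.72 between FIBCL and SCDM.

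P2ry6 and P2ry2 stand 21919 bp apart on chromosome 7 and were called in opposite directions. P2ry6, a UDP receptor gene of phagocytes, was at 1.45, 2.13 and 2.55 scaled TPM in the spheres, 22.2, 17.5 and 20.2 in SCDM, 20.6, 21.2 and 19.99 in SCDM/FGF and 1.22, 2.41 and 2.18 in FIBCL. It fell in FIBCL against SCDM (log2 FC −2.85, SE 0.17, adjusted p = 3.68e-08) and rose in SCDM against spheres (log2 FC 2.79, SE 0.17, adjusted p = 1.48e-07). P2ry2, whose product answers ATP and UTP, was at 6.12, 5.9 and 6.76 scaled TPM in the spheres, 5.35, 4.17 and 5.25 in SCDM, 9.79, 10.8 and 8.9 in SCDM/FGF and 18.4, 19.1 and 18.4 in FIBCL. Its FIBCL libraries lay above all others and it rose against SCDM (log2 FC 1.74, SE 0.097, adjusted p = 1.79e-08), while against SCDM/FGF the difference was under the limit (log2 FC 0.86, SE 0.097, adjusted p = 8.35e-06). P2ry1, an ADP receptor gene, was at 13, 14 and 14.3 scaled TPM in the spheres, 12.4, 11.9 and 13.1 in SCDM, 29, 26.2 and 28.5 in SCDM/FGF and 5.21, 5.4 and 5.89 in FIBCL. It was lower in FIBCL than in SCDM (log2 FC −1.05, SE 0.069, adjusted p = 7e-08). Entpd2, which breaks down extracellular ATP, was at 49.99, 49.9 and 45.6 scaled TPM in the spheres, 30.6, 25.8 and 23.3 in SCDM, 34, 27 and 35.2 in SCDM/FGF and 1.18, 0.935 and 0.617 in FIBCL.

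Adora2b and Adra2a rose with added bFGF. Adora2b, a low-affinity adenosine receptor gene coupled to Gs (ENSMUSG00000018500, chromosome 11, 62248984 to 62266453, plus strand), was at 2.31, 2.34 and 2.16 scaled TPM in the spheres, 1.52, 1.31 and 1.33 in SCDM, 19.8, 21.1 and 19.8 in SCDM/FGF and 1.72, 1.69 and 2.15 in FIBCL. The 3 SCDM/FGF libraries stood above the other 9, with a rise over SCDM (log2 FC 3.15, SE 0.089, adjusted p = 3.45e-10), and FIBCL was lower than SCDM/FGF (log2 FC −2.9, SE 0.089, adjusted p = 1.28e-10). Adra2a, the Gi-coupled alpha-2A adrenoceptor gene (ENSMUSG00000033717, chromosome 19, 54044151 to 54048982, plus strand), was at 6.38, 5.99 and 6.63 scaled TPM in the spheres, 2.72, 2.38 and 2.46 in SCDM, 34.4, 38.6 and 23.5 in SCDM/FGF and 2.64, 2.21 and 3.38 in FIBCL. It rose likewise (log2 FC 3.21, SE 0.17, adjusted p = 3.59e-08). Nt5e, whose product turns AMP into adenosine, was higher in SCDM/FGF than in SCDM too (log2 FC 2.46, SE 0.12, adjusted p = 1.91e-08).

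In FIBCL the adenosine receptor to rise over SCDM was Adora2a, the high-affinity Gs-coupled subtype (ENSMUSG00000020178, chromosome 10, 75316877 to 75334784, plus strand). It was at 0.626, 0.576 and 0.461 scaled TPM in the spheres, 0.513, 0.541 and 0.142 in SCDM, 0.675, 1.87 and 1 in SCDM/FGF and 5.82, 2.83 and 3.1 in FIBCL, with FIBCL replicate 1 well above the other two. Outside FIBCL only SCDM/FGF replicate 2 reached 1 TPM as deposited. Adora2a was thus tested only through the FIBCL libraries, and its difference is given as levels alone. Adora1, the Gi-coupled subtype, differed from SCDM by less than the limit (log2 FC 0.53, SE 0.11, adjusted p = 0.00107) and rose against SCDM/FGF (log2 FC 1.09, SE 0.11, adjusted p = 3.3e-06). Npy1r, the Y1 receptor gene of neuropeptide Y, was at 0.516, 0.402 and 0.445 scaled TPM in the spheres, 1.41, 1.58 and 1.21 in SCDM, 2.52, 1.45 and 2.35 in SCDM/FGF and 4.98, 5.93 and 6.29 in FIBCL. It rose in FIBCL against SCDM (log2 FC 1.49, SE 0.14, adjusted p = 2.14e-06), and Npy itself was at 7.91, 10.2 and 10.2 scaled TPM in the spheres, 1.16, 0.634 and 2.84 in SCDM, 0.675, 0.392 and 1.05 in SCDM/FGF and 204, 239 and 225 in FIBCL. Drd2, the dopamine D2 receptor gene, was above 1 TPM in FIBCL alone, at 1.71, 2.3 and 2.43, and was listed at 0 in the spheres. None of the 5 melanocortin receptor genes was high enough to test.

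F2r, the gene of the thrombin receptor PAR1 (ENSMUSG00000048376, chromosome 13, 95601803 to 95618487, minus strand), was at 19.9, 19 and 18.5 scaled TPM in the spheres, 27.8, 30.1 and 28.5 in SCDM, 28.1, 34.5 and 30.2 in SCDM/FGF and 66.1, 68.4 and 66.8 in FIBCL. The 3 FIBCL libraries were above the other 9, and F2r rose against SCDM (log2 FC 1.19, SE 0.068, adjusted p = 2.1e-08), against SCDM/FGF (log2 FC 1.1, SE 0.068, adjusted p = 4.65e-08) and against spheres (log2 FC 1.76, SE 0.068, adjusted p = 8.26e-10). Without rescaling, the calls against SCDM and SCDM/FGF were lost. Prothrombin, F2, was under 1 TPM in every library, and the related F2rl1, F2rl2 and F2rl3 were not tested.

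The orphan and other numbered receptors were the largest class, with 36 tested of 76, and split evenly between FIBCL and SCDM, 9 higher and 9 lower. Gpr4, a proton sensor of blood vessels (ENSMUSG00000044317, chromosome 7, 19212538 to 19224174, plus strand), was at 0.211, 0.341 and 0.0755 scaled TPM in the spheres, 0.181, 0.103 and 0 in SCDM, 2, 2.71 and 3.08 in SCDM/FGF and 5.57, 4.74 and 5.73 in FIBCL. It rose in FIBCL (log2 FC 2.54, SE 0.14, adjusted p = 1.58e-08) and in SCDM/FGF (log2 FC 1.71, SE 0.14, adjusted p = 1.65e-06) against SCDM. Gpr65, the proton sensor of leukocytes, went the other way, at 0.778, 0.803 and 0.495 scaled TPM in the spheres, 5.23, 6.25 and 5.91 in SCDM, 5.11, 3.12 and 5.17 in SCDM/FGF and 0.37, 1.3 and 0.748 in FIBCL (FIBCL against SCDM, log2 FC −1.94, SE 0.20, adjusted p = 4.31e-06). Gpr3, whose promoter letters are printed with those of Bdkrb2 and which raises cyclic AMP without a known ligand and is expressed in neurons (ENSMUSG00000049649, chromosome 4, 133209340 to 133212536, minus strand), was at 1.21, 1.06 and 0.873 scaled TPM in the spheres, 0.59, 0.14 and 0.255 in SCDM, 2.58, 1.97 and 2.22 in SCDM/FGF and 5.34, 7.59 and 4.67 in FIBCL. It rose in FIBCL (log2 FC 2.36, SE 0.17, adjusted p = 1.77e-07). It overlaps Cd164l2 on the other strand, which reached at most 4.79 scaled TPM and differed by 1.25. The strand of the library kit was not given in the sources used here.

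Gpr137c, of a family of lysosomal membrane proteins, was at 5.33, 4.57 and 5.35 scaled TPM in the spheres, 2.95, 2.89 and 3.98 in SCDM, 1.94, 3.33 and 2.62 in SCDM/FGF and 22.7, 20.4 and 21.4 in FIBCL (FIBCL against SCDM, log2 FC 2.41, SE 0.14, adjusted p = 3.26e-08) and overlaps Txndc16 on the other strand, which differed by −0.33. Gpr19, found in neurons, was at 3.42, 4.77 and 4.09 scaled TPM in the spheres, 3.19, 3.67 and 3.4 in SCDM, 2.93, 2.26 and 3.25 in SCDM/FGF and 13.5, 15.3 and 14.2 in FIBCL. FIBCL held the highest 3 libraries and the gene rose against SCDM (log2 FC 1.8, SE 0.12, adjusted p = 1.07e-07). Gpr45, another orphan of neural tissue, was at 0.618, 0.515 and 0.411 scaled TPM in the spheres, 0.39, 0.205 and 0.33 in SCDM, 0.44, 0.473 and 1.54 in SCDM/FGF and 2.72, 3.91 and 3.14 in FIBCL. Outside FIBCL only SCDM/FGF replicate 3 was above 1 TPM. Gpr45 was thus tested only through the FIBCL libraries, and its difference is given as levels alone. Gpr50, an orphan related to melatonin receptors, was listed at 0 in all 9 libraries of the other groups and was at 3.63, 3.09 and 3 in FIBCL. Gpr158, of neurons, was at 1.79, 1.73 and 1.77 in FIBCL and 0.127 or less in every other library. Gpr50, Gpr158, Drd2 and further genes of this and the preceding classes were named after their values had been seen.

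Of the orphans that were higher in SCDM than in spheres, Gpr176, an orphan described in clock neurons, rose most outside the myeloid list. It was at 1.67, 1.67 and 1.27 scaled TPM in the spheres, 11.6, 12 and 12.8 in SCDM, 7.22, 9.29 and 7.04 in SCDM/FGF and 2.38, 2.78 and 2.13 in FIBCL (SCDM against spheres, log2 FC 2.38, SE 0.12, adjusted p = 2.78e-08) and was lower in FIBCL than in SCDM (−1.94 on the log2 scale). Gpr84, a fatty acid receptor gene of activated macrophages, was at 1.24, 0.489 and 0.864 scaled TPM in the spheres, 5.85, 6.6 and 7.37 in SCDM, 3.34, 1.86 and 4.02 in SCDM/FGF and 0.0717, 0.16 and 0 in FIBCL. It rose in SCDM (log2 FC 2.04, SE 0.21, adjusted p = 8.01e-06) and fell in FIBCL against SCDM (log2 FC −2.82, SE 0.21, adjusted p = 1.91e-07). Gpr27, of the brain-expressed SREB family, was at 4.23, 4.27 and 3.91 scaled TPM in the spheres, 6.23, 4.79 and 7.16 in SCDM, 16.4, 17.9 and 15.7 in SCDM/FGF and 2.08, 2.4 and 2.35 in FIBCL. It rose in SCDM/FGF against SCDM (log2 FC 1.34, SE 0.12, adjusted p = 3.11e-06). Gpr31b and Gpr31c are near copies whose reads may have been divided between them, so their values are uncertain.

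The adhesion receptors, with 16 tested of 27, had 4 higher and 7 lower in FIBCL than in SCDM. Adgrv1, the very large receptor of hair-cell and photoreceptor links that is altered in Usher syndrome (ENSMUSG00000069170, chromosome 13, 81095068 to 81633154, minus strand), was at 0.465, 0.183 and 0.369 scaled TPM in the spheres, 0.152, 0.149 and 0.415 in SCDM, 0.421, 0.181 and 0.162 in SCDM/FGF and 9.33, 8.55 and 9 in FIBCL. It was tested only because the FIBCL libraries passed the low-value limit, so its difference is given as levels alone. Adgrb2, a brain receptor, was at 12.4, 11.5 and 10.5 scaled TPM in the spheres, 7.36, 5.42 and 7.35 in SCDM, 8.04, 5.82 and 7.76 in SCDM/FGF and 23.3, 23.3 and 20.9 in FIBCL. FIBCL was above the other groups, with a rise over SCDM (log2 FC 1.62, SE 0.13, adjusted p = 4.82e-07). Adgrb3 was at 1.4, 1.67 and 1.34 scaled TPM in the spheres, 0.39, 0.215 and 0.283 in SCDM, 1.64, 1.87 and 1.83 in SCDM/FGF and 2.25, 2.46 and 2.24 in FIBCL. It rose against SCDM (log2 FC 1.36, SE 0.097, adjusted p = 1.57e-07), and against spheres the difference was under the limit (log2 FC 0.43, SE 0.097, adjusted p = 0.00206). Adgra3 rose too (log2 FC 1.02, SE 0.27, adjusted p = 0.00578), with libraries at 34.6, 35.5 and 23 in FIBCL and 13.7, 13.1 and 17.3 in SCDM, and without rescaling this call was lost.

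On the other side, Adgrl3, a latrophilin of synapses (ENSMUSG00000037605, chromosome 5, 81020138 to 81825133, plus strand), was at 24.2, 25.1 and 32.9 scaled TPM in the spheres, 17.7, 21.6 and 24.4 in SCDM, 27.4, 23 and 21.8 in SCDM/FGF and 7.47, 3.56 and 3 in FIBCL. It fell (log2 FC −2.04, SE 0.24, adjusted p = 1.35e-05), with FIBCL replicate 1 the highest of its group. The other latrophilins Adgrl1 and Adgrl2 were called nowhere, and Adgrl2 was at 65.8, 65.2 and 69 scaled TPM in the spheres, 62.9, 66 and 56 in SCDM, 86, 72.2 and 75.4 in SCDM/FGF and 45.7, 41 and 42.4 in FIBCL. Adgrg1, a receptor of glial progenitors and myelinating cells (ENSMUSG00000031785, chromosome 8, 94974751 to 95014217, plus strand), was at 34.1, 32.8 and 25.2 scaled TPM in the spheres, 11.3, 11.2 and 9.57 in SCDM, 12.3, 8.35 and 11 in SCDM/FGF and 2.9, 2.29 and 2.28 in FIBCL. It was lower in SCDM than in spheres (log2 FC −1.43, SE 0.15, adjusted p = 1e-05) and lower in FIBCL than in SCDM (log2 FC −1.75, SE 0.15, adjusted p = 7.03e-07). Adgrg6, which Schwann cells need to myelinate, was at 7.38, 6.33 and 6.77 scaled TPM in the spheres, 21.8, 25.7 and 24.8 in SCDM, 15.9, 17.2 and 13.3 in SCDM/FGF and 8.77, 8.74 and 8.61 in FIBCL. It rose in SCDM against spheres (log2 FC 1.68, SE 0.097, adjusted p = 8.32e-08) and fell in FIBCL against SCDM (log2 FC −1.37, SE 0.097, adjusted p = 1.43e-07). Adgrl4, of endothelium, was at 6.47, 5.85 and 7.59 scaled TPM in the spheres, 1.74, 1.82 and 1.43 in SCDM, 12.2, 14.9 and 12 in SCDM/FGF and 0, 0.652 and 0.63 in FIBCL. It fell in SCDM (log2 FC −1.52, SE 0.18, adjusted p = 3.7e-05) and rose in SCDM/FGF against SCDM (log2 FC 2.39, SE 0.18, adjusted p = 1.04e-06). The 6 endothelial markers summed to 109 to 110.4 in spheres, 42.8 to 51.2 in SCDM, 264 to 303 in SCDM/FGF and 13.1 to 13.7 in FIBCL. Emcn made up most of that sum in the first 3 groups and was listed at 0 in FIBCL, and without it the sums were 11.7 to 14.6, 8.43 to 8.92, 36.6 to 40.5 and 13.1 to 13.7. The members did not move together, since Kdr had its highest mean in FIBCL (10.1 scaled TPM) and Tek in SCDM (4.79). In SCDM/FGF against SCDM 2 of the 6 were higher and 1, Tek, was lower, and their part was not tested. Tek reached 1 TPM in the SCDM libraries alone. Adgra2, a partner of Wnt7 signals in brain vessels, was at 55.8, 55.7 and 49.7 scaled TPM in the spheres, 47.9, 45.3 and 41.5 in SCDM, 85.1, 90.03 and 78.7 in SCDM/FGF and 14.8, 14.5 and 15.4 in FIBCL and was lower in FIBCL than in the other 3 groups.

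Adgre1 encodes F4/80, the mouse macrophage marker (ENSMUSG00000004730, chromosome 17, 57358691 to 57483527, plus strand), and had the widest span of the adhesion class. It was at 13.9, 10.2 and 12.1 scaled TPM in the spheres, 183, 199.8 and 214 in SCDM, 100.3, 79.7 and 79.5 in SCDM/FGF and 3.1, 3.68 and 3.37 in FIBCL. The 4 groups did not overlap, and Adgre1 was higher in SCDM than in spheres (log2 FC 3.94, SE 0.12, adjusted p = 6.19e-10). It was lower in SCDM/FGF than in SCDM (log2 FC −1.2, SE 0.12, adjusted p = 7.38e-06) and lower in FIBCL than in SCDM (log2 FC −5.51, SE 0.12, adjusted p = 7.4e-12). The receptor genes listed as associated with myeloid cells (14, of which 10 were tested) had 9 lower and 0 higher in FIBCL than in SCDM, and 8 higher and 0 lower in SCDM than in spheres. Their summed level was 65.1 to 67.1 scaled TPM in spheres, 262 to 289 in SCDM, 161 to 186 in SCDM/FGF and 16.8 to 19.1 in FIBCL. Adgre1 carried most of the SCDM sum, and without it the other 13 summed to 51.9 to 55 in spheres, 74.1 to 78.8 in SCDM, 80.8 to 93.6 in SCDM/FGF and 13.7 to 15.4 in FIBCL, so that SCDM/FGF then lay above SCDM. Most of what remained in spheres was Adgre5, which was higher there than in SCDM, unlike the called genes of the list. Adgre5 was at 47 to 49.6 in spheres, 28.5 to 29.6 in SCDM, 38.6 to 48.1 in SCDM/FGF and 10.5 to 11.4 in FIBCL. Sums without both genes were not computed, so the order of SCDM/FGF and SCDM rests partly on Adgre5. Of the 14 macrophage markers, 13 were lower in FIBCL than in SCDM, 7 were lower and 1 higher in FIBCL than in spheres, and 14 were higher in SCDM than in spheres. Cd68 was the exception in FIBCL, at a mean of 164 scaled TPM, while C1qa was at 0.384 and Csf1r at 0.335, and at most 1 of the 14 was at 0 in a library. How far macrophage content moved these receptor genes was not tested. Leaving them out, 73 receptor genes were tested. Of these, 20 (27.4%) were higher and 19 (26%) lower in FIBCL than in SCDM, beside 13.2% and 16.1% of all genes. In SCDM against spheres 4 (5.48%) were higher and 8 (11%) lower, beside 6.94% and 5.46% of all genes.

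**Figure D5:**
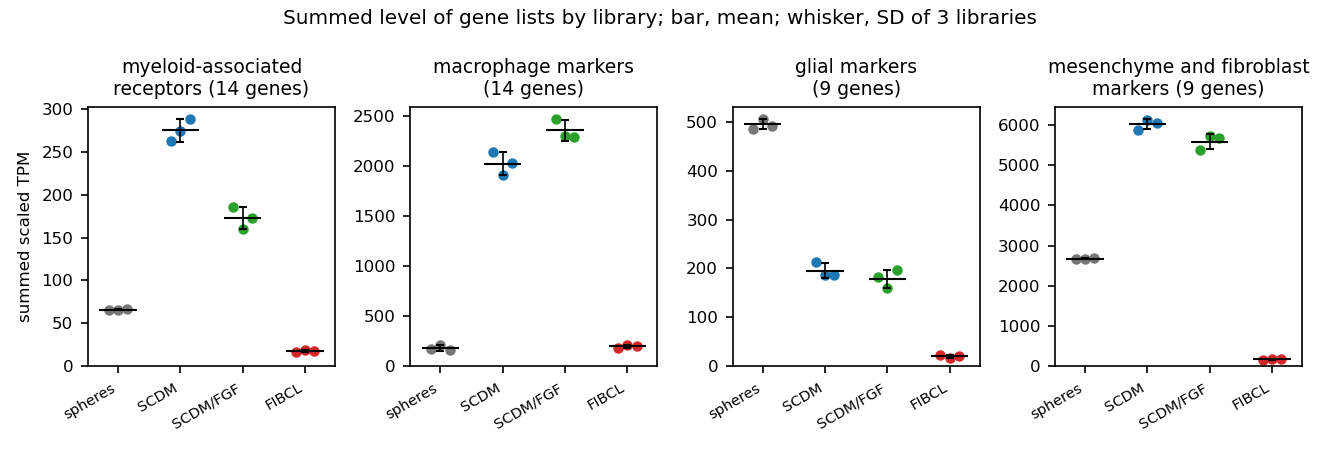
Summed scaled TPM of the 14 myeloid-associated receptor genes and of 3 marker lists in the 12 libraries, with a bar for the mean and whiskers for the SD of 3 libraries. The myeloid-associated receptors and the macrophage markers both have their highest sums in SCDM and SCDM/FGF, where Adgre1 carries much of the receptor sum, Cd68 gives most of the macrophage sum in FIBCL, and glial and mesenchyme markers are lowest in FIBCL. In spheres Adgre5 gives most of the receptor sum.

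Counts of the shorter lists are read beside the shares of all genes called, 13.2% higher and 16.1% lower between FIBCL and SCDM. Of 5 receptor genes associated with glia, 3 were tested (Lpar1, Ednrb and Adgrg6) and all 3 fell in FIBCL against SCDM. Of 16 associated with neurons, 10 were tested, of which 5 rose (Adgrb2, Adgrb3, Gpr45, Gpr158 and Npy1r) and 2 fell, among them Adgrl3. Gpr158 is among the genes that passed the low-value limit in FIBCL alone, and Gpr45 passed it only with the FIBCL libraries counted. The 16 summed to 84.3 to 95.4 scaled TPM in FIBCL and 100.6 to 107.9 in spheres. In SCDM the sum was 75.5 to 82.4 and in SCDM/FGF 74.3 to 81.7. Against spheres, 3 of the 10 tested were higher in FIBCL and 1 was lower. By coupling, Gs receptor genes had 3 of 7 tested higher and 1 lower in FIBCL than in SCDM, Gi genes 3 of 11 higher and 5 lower, and Gq genes 2 of 8 higher and 3 lower. In SCDM/FGF against SCDM, where 5.73% of all genes were higher and 4.04% lower, the Gs (7 tested), Gi (11) and Gq (8) genes each had 3 higher and 0 lower.

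Genes that act with the receptors were called in both directions, beside the same 13.2% and 16.1% of all genes. Of 13 G alpha genes 3 rose and 1 fell in FIBCL against SCDM. Gnal, the olfactory-type Gs subunit of neurons, was at 0.829, 0.873 and 0.839 scaled TPM in the spheres, 0.19, 0.28 and 0.453 in SCDM, 0.382, 0.443 and 0.396 in SCDM/FGF and 12.7, 12.4 and 11.1 in FIBCL. It passed the low-value limit only with the FIBCL libraries counted, so its difference was built into its selection and is given as levels. Gnai1 was at 4.52, 5.32 and 6.24 scaled TPM in the spheres, 6.29, 5.09 and 4.44 in SCDM, 3.77, 4.21 and 4.53 in SCDM/FGF and 29, 31.5 and 29.9 in FIBCL (log2 FC 2.32, SE 0.12, adjusted p = 1.28e-08), while Gna15, of blood cells, had a log2 FC of −1.77. Gnas, the common Gs subunit, differed by −0.54. Of 9 adenylyl cyclase genes Adcy4 rose (log2 FC 1.62) and Adcy7 fell (log2 FC −2.52, SE 0.073, adjusted p = 7.57e-11), being at 105, 105 and 100.5 in SCDM. Adcy1, the calcium-responsive form of neurons, was called higher too, at a mean of 0.531 scaled TPM in SCDM and 7.13 in FIBCL. It reached 1 TPM in the FIBCL libraries alone, so its difference was built into its selection and is given as levels. Of 16 tested RGS genes 4 rose and 5 fell, with a log2 FC of −3.01 for Rgs4. Rgs7, among those that rose, reached 1 TPM in FIBCL alone, and Rgs18, among those that fell, in SCDM alone. Of 7 tested receptor kinase and arrestin genes, Grk3 alone was called (log2 FC 2.34, SE 0.11, adjusted p = 5.64e-09), and of 14 tested G beta and gamma genes 3 rose and 1 fell. Gng4 and Gng13, among the 3 that rose, reached 1 TPM in FIBCL alone. Of 19 tested genes for ligands and their enzymes 4 rose (Ptges, Ptgs2, Npy and Pomc) and 7 fell. Edn3, among the 7 that fell, reached 1 TPM in SCDM alone.

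Without rescaling, 3 of the 48 calls between FIBCL and SCDM were lost, 5 were gained and 0 changed sign. Against SCDM, SCDM/FGF and spheres alike, 13 receptor genes were higher in FIBCL (Adora2a, Adgrv1, Bdkrb2, Drd2, Npy1r, Gpr137c, Gpr158, Gpr19, Gpr3, Gpr45, Gpr50, Ptger3 and F2r). Adgrv1, Drd2, Gpr158 and Gpr50 passed the low-value limit in FIBCL alone, which leaves 9 others. Of these 9, Adora2a and Gpr45 passed it only with the FIBCL libraries counted, so their difference was also built into their selection. By the same comparisons 14 were lower (Adgra2, Adgre1, Adgre5, Adgrg1, Adgrg2, Adgrl3, Ednra, Ednrb, Lpar1, Gpr153, P2ry1, P2ry14, S1pr2 and S1pr3). These 3 comparisons share the FIBCL libraries. The share of all tested genes called alike in all 3 was not computed, so the counts are not read as a trait of the receptors. Without rescaling, Adora2a, Npy1r, Gpr3 and F2r were no longer called against SCDM/FGF.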

How the data were processed

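Per the labels and the study's methods, the authors extracted RNA with TRIzol, selected polyA RNA, made TruSeq libraries, cleaned the paired reads (SeqPrep, Sickle), mapped them (TopHat) and estimated gene levels with RSEM. The deposited values are TPM with 2 decimals, so read depth is unknown and no count test or interval that needs depth was made; the genome build is not given in the sources used here.

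A gene entered the tests if 3 or more of the 12 libraries reached 1 TPM. Each library was rescaled by the trimmed mean (30% at each end) of its log2 ratios, taken from 8434 genes that no library had below 5 TPM, and values were analysed as log2(scaled TPM + 1), with a pseudocount of 1 TPM. limma 3.58.1 (R 4.3.3) was fitted once over the 4 groups with a variance trend and no covariate, and p-values were Benjamini-Hochberg adjusted over all tested genes within each comparison. The fit was tested on simulated data. Groups came from the sample labels, which call the libraries biological replicates; p-values measure the spread between these libraries.

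Receptor genes, lists and tests were chosen with earlier results of these data known. Named in the text are the 10 highest and 10 lowest called receptor genes between FIBCL and SCDM, up to 4 each way between SCDM/FGF and SCDM and between SCDM and spheres (all with a mean of at least 1 scaled TPM over the libraries and no overlap), and the 3 highest by level in each group; others were named after their values were seen, and the values of some genes are not reported here. Positions came from GENCODE M21 (160 of 161 genes by identifier) and promoters from RefSeq. Alternatives covered scaling, pseudocount, low-value limit, call limits, groups in the fit, variance trend, replicate block and each library left out. Sums without Emcn, Cd68 or Adgre1 were added after seeing the data. Python 3.11.15 with pandas 2.3.3 read the sequences and matplotlib 3.10.9 drew the plots.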

Additional observations from a re-analysis of the deposited data

How the results depend on the processing

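The 33 differences chosen by the naming rule kept their direction under every alternative run, and of their 495 values 492 stayed on the same side of the limit and 3 did not. At a log2 fold change of at least 1.5, Adgre1 (SCDM/FGF against SCDM, −1.20), Adgrg1 (SCDM against spheres, −1.43) and P2ry14 (SCDM against spheres, −1.36) were no longer called. Genes named outside that rule were rerun only for the scaling, where F2r and Adgra3 lost their calls between FIBCL and SCDM without rescaling. Without the fold limit the number of called receptor genes rose to 73 for FIBCL against SCDM/FGF, 60 for FIBCL against spheres, 56 for SCDM against spheres, 60 for SCDM/FGF against spheres and 40 for SCDM/FGF against SCDM. With a limit of 1.5 it was 30 for FIBCL against SCDM/FGF, 12 for SCDM against spheres, 15 for SCDM/FGF against spheres and 7 for SCDM/FGF against SCDM. For FIBCL against SCDM, 29 were higher and 37 lower without the fold limit, and 13 and 19 at 1.5. FIBCL against spheres had 13 higher and 13 lower at 1.5. The share of all tested genes called was computed for the main setting only, so counts at other settings are not read as a trait of the receptors. A pseudocount of 0.1 TPM gave 33 for SCDM against spheres, and the cause was not tested. Leaving out the 14 myeloid-associated genes, a choice made after seeing the data, gave 12 for SCDM against spheres, since fewer genes were counted. Leaving out each library in turn gave 48 to 50 for FIBCL against SCDM, 45 to 48 for FIBCL against SCDM/FGF, 35 to 36 for FIBCL against spheres, 19 to 20 for SCDM against spheres, 24 to 26 for SCDM/FGF against spheres and 16 to 17 for SCDM/FGF against SCDM. Deviations from the group mean had correlations of −0.121 to 0.098 between same-numbered libraries, and 0 of 18 pairs were above 0.1. These values showed no strong pairing by replicate number. Whether same-numbered libraries shared a culture or batch is not given in the labels. With the replicate block the count for FIBCL against SCDM was 48, as without it, and no count moved by over 1.5 times. Depth is unknown, so values under 1 TPM carry an error that was not estimated.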
